A study of Mus musculus with 2 samples.

Results

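Tgfbr1, Eng, Id2, Id3 and Gata6, genes of TGF-beta and BMP signalling and of the Gata6 programme of the lung, were examined in lung tissue of mice that lack Bclaf1. The genes were found by their symbol in the authors' deposited tables, one of up-regulated clones (6.66% of the array) and one of down-regulated clones (8.82%), which name 2266 genes in all, and these 5 genes were represented by 7 cDNA clones. Tgfbr1, Eng, Id2 and Id3 had 1 clone each and Gata6 had 3. The tables name only clones that the authors had selected on these same arrays, so further clones of these genes may lie among the unnamed spots, and every member had to lie away from 0. Each of 2 spotted cDNA arrays held RNA from 1 wild-type lung sample labelled with Cy5 and 1 Bclaf1 knockout lung sample labelled with Cy3, and gave 1 log2 ratio of the channels per clone. The sample titles place the tissue at embryonic day 19, whereas the series text places it at postnatal day 1, and the stage is given here as the labels have it. The labels number the RNA pairs as separate samples without stating whether each came from another animal, and they give no strain, no sex and no description of the Bclaf1 allele.

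TGF-beta and BMP ligands bind pairs of serine/threonine kinase receptors, which phosphorylate Smad proteins that enter the nucleus and act on target genes. In the lung these signals take part in branching of the airways and in the growth of smooth muscle and vessels. They also take part in the thinning of the walls between the airspaces before birth. Id proteins, which are well-known targets of BMP signalling, carry a helix-loop-helix domain without a DNA-binding region and hold back basic helix-loop-helix transcription factors by pairing with them. Gata6 is a zinc finger transcription factor of the lung epithelium, the smooth muscle and the heart, and is needed for the maturation of the distal airways.

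The direction of the ratio could not be settled. If the ratio is Cy5 over Cy3, positive values stand for more RNA in the wild type; if it follows the names of the authors' tables, they stand for more RNA in the knockout. Values are therefore given as lying on the positive side, which holds the up-regulated table, or on the negative side, and the other reading turns every sign together. Dye and genotype cannot be told apart, since both arrays carried the dyes the same way round. The clone of the targeted gene, Bclaf1 on chromosome 10, had log2 ratios of 0.40 on array 1 and 0.41 on array 2. Whether it lies within the deleted part of Bclaf1 is unknown here, so it checks neither reading. Of the 22656 clones, 22532 had a value on both arrays, with an SD across clones of 0.295 on array 1 and 0.430 on array 2. On both arrays the X-linked Xist lay on the positive side, at 2.69 and 2.15, and the Y-linked Ddx3y on the negative side, at -1.12 and -0.61. The clones of Eif2s3y, also Y-linked, were negative as well, at -0.34 and -0.04 for one and at -0.44 and -0.94 for the other. Xist and the Y-linked clones thus lay on opposite sides of 0 on both arrays. A difference in sex between the wild-type and knockout samples therefore cannot be told apart from genotype or dye. Its part in the results below was not tested. The number of arrays limits the precision of all values, and the p-values rest on how far 1 array differs from the other, a spread that may be technical. In the limma test below, the spread of each clone is combined with one pooled over all clones. The pooled spread has 2.31 prior degrees of freedom, against 1 for the clone itself.

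Id2 and Id3 are closely related proteins of the same family, and their clones lay on opposite sides of 0, so their promoters are shown here. The sequences are those of RefSeq on build GRCm38.p6 and run from 250 bases before to 50 bases after the annotated start, 5′ to 3′ on the gene's strand. Capitals mark the Smad-binding half-site GTCT, read on both strands and so also as AGAC, and the palindrome GGCGCC of BMP-responsive elements. The Id2 window is chr12:25096043-25096342 on the minus strand, and the Id3 window is chr4:136143572-136143871 on the plus strand.
Id2: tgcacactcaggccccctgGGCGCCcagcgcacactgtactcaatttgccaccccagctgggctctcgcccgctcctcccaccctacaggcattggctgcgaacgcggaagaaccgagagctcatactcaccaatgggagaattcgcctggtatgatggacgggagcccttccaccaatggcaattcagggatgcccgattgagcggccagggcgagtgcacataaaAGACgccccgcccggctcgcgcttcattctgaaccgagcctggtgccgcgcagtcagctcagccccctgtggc
Id3: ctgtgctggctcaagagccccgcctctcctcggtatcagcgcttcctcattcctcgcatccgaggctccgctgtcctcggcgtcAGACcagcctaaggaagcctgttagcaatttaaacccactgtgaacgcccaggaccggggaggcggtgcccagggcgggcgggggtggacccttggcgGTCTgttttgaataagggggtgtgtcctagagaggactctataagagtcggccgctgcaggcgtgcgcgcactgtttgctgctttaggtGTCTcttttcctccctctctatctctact
The Id2 window held 1 GTCT match, 23 bases before the start, and 1 GGCGCC match, 231 bases before it. The Id3 window held 3 GTCT matches, of which those upstream lay 166 and 68 bases before the start, and no GGCGCC match. In the windows of the receptor genes, GTCT had 2 matches for Eng and 0 for Tgfbr1, and GGCGCC had 0 and 1. The E-box CANNTG, the motif of basic helix-loop-helix factors, had 1 match each for Id2 and Eng and 0 for Id3 and Tgfbr1. Among 32851 RefSeq promoter windows of the same length, 88.0% held GTCT, 11.9% held GGCGCC and 72.3% held CANNTG. These motifs do not overlap one another in the windows shown, and a match is a match of letters in the window.

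Across the 7 clones the ratios were modest, from 1.17-fold to 1.37-fold as means of the arrays. The clones of Tgfbr1, Eng and Id3 and 1 Gata6 clone lay on the negative side on both arrays, and the clones of Id2 and the other two of Gata6 lay on the positive side on both. All 7 thus had the same sign on both arrays, beside 69.6% of all clones. The authors' selection favours such clones, and by gene mean 2205 of the 2258 named genes measured on both arrays had it too. When each mean ratio was set against 0 with limma, none of the 7 clones passed an adjusted p (Benjamini-Hochberg) of 0.05, beside 0.0% of 22532 clones, and their adjusted p was 0.349 or 0.354. At an unadjusted limma p under 0.05 were 3 of the 7, those of Tgfbr1, Id2 and Id3. Which clones passed this level changed with the processing, as Id3 did not with block medians subtracted (unadjusted p = 0.0666), nor did Tgfbr1 and Id2 in the ordinary one-sample test (0.109 and 0.0601). The share was 13.9% of all clones and 59.3% of the named clones of the authors' tables, so the members' count says nothing particular about them. An ordinary one-sample test likewise called 0.0% of the array once adjusted, and 8.26% of it without adjustment. Past 1.5-fold on both arrays were 0 of the 7 clones, beside 0.506% of all clones for the positive side and 0.311% for the negative.

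**Figure D1:**
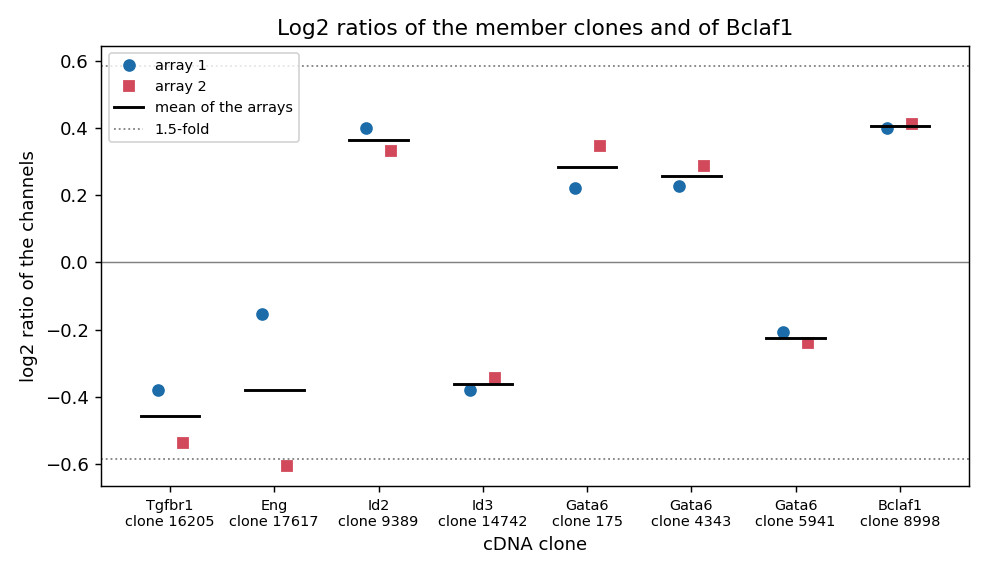
Log2 ratio of the channels (vertical axis) of the 7 member clones and the Bclaf1 clone, with array 1 as circles, array 2 as squares, the mean of the arrays as a bar and dotted lines at 1.5-fold. Only Eng passed 1.5-fold, on array 2 alone, and Eng also had the widest gap between arrays, 0.45.

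The receptors come first. Tgfbr1, on chromosome 4, encodes the type I receptor whose kinase phosphorylates the Smads of the TGF-beta branch. Its clone, number 16205, had a log2 ratio of -0.38 on array 1 and -0.54 on array 2. Both values lay on the negative side and neither reached 1.5-fold. The mean was -0.46 ± 0.11 (SD, n = 2 arrays), a 1.37-fold difference, with a limma standard error of 0.100, a 95% confidence interval of -0.76 to -0.16 and an adjusted p of 0.349. The interval, like those of the other members, is not adjusted for the number of clones tested. It was computed on the same arrays on which the authors had selected the clones. Such selection favours intervals away from 0, so their coverage may be below the stated level. An interval that leaves out 0 is therefore not a call. Over all clones, 3.33% had a mean further out on the negative side, so of the 7 members Tgfbr1 lay furthest from 0. The authors' deposited table lists it as down-regulated with a fold change of 0.74 and a p of 0.03, and 2 to the power of the mean ratio was 0.728.

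Eng, on chromosome 2, encodes endoglin, a co-receptor for TGF-beta and BMP ligands that is found chiefly on endothelial cells. Its clone, number 17617, lay at -0.15 on array 1 and at -0.61 on array 2. The arrays differed for this clone by more than the mean itself, which was -0.38 ± 0.32 (SD, n = 2), and the limma interval of -0.84 to 0.085 held 0 (adjusted p = 0.354). On array 1, 21.4% of all clones lay further out on the negative side, against 4.26% on array 2. The fold change of 0.69 in the authors' deposited table is further from 1 than the 0.768 that the mean of the arrays gives, and the values behind it are unknown here. Of the 20 genes of the endothelial marker list, Eng was the only one that the authors' tables name, so no other endothelial gene was available beside it. In whole tissue, fewer cells of a type and less RNA per cell cannot be told apart. The difference between the Tgfbr1 and Eng clones changed sign from array 1, at -0.23, to array 2, at 0.070.

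The Id genes are the downstream members. Id2, on chromosome 12, marks the growing tips of the lung epithelium during development. Its clone, number 9389, lay at 0.40 on array 1 and 0.33 on array 2. Both values were on the positive side, with a mean of 0.37 ± 0.049 (SD, n = 2), a 1.29-fold difference (limma 95% interval 0.088 to 0.64, adjusted p = 0.349). Id3, on chromosome 4, is a relative of Id2 that responds strongly to BMP ligands in vascular cells. Its clone, number 14742, lay at -0.38 on array 1 and -0.35 on array 2. The mean was -0.36 ± 0.024 (SD, n = 2), again a 1.29-fold difference but on the negative side (interval -0.64 to -0.090, adjusted p = 0.349). The Id clones were thus about equally far from 0 on opposite sides. The Id2 ratio exceeded the Id3 ratio by 0.78 on array 1 and 0.68 on array 2, with a mean log2 difference of 0.73 ± 0.073 (SD, n = 2). In an exact sign-flip permutation test over the arrays this gave a two-sided p of 0.5, the smallest that 2 arrays allow, and 0.833 when adjusted over the 5 pairs of clones compared. Clones that keep to opposite sides of 0 on both arrays must give a p of 0.5, so the test cannot decide whether they differ. The authors' deposited tables give a fold change of 1.3 for Id2 and 0.79 for Id3.

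**Figure D2:**
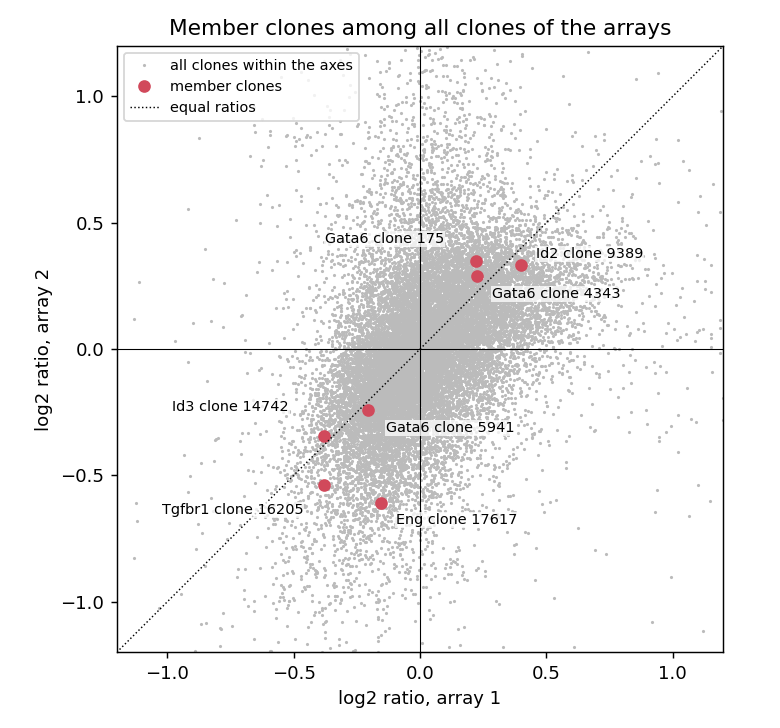
Log2 ratio on array 1 (horizontal axis) against array 2 (vertical axis) for the 7 member clones, in red, among all clones within the axes, in grey, with a dotted line where the ratios are equal; clones beyond the axes are not drawn. The members lie at the lower left and upper right, inside the cloud of all clones, and Eng is the furthest from the dotted line.

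Gata6, on chromosome 18, had 3 named clones, and these did not lie on one side. Clone 175 had log2 ratios of 0.22 on array 1 and 0.35 on array 2, and clone 4343 had 0.23 and 0.29. Both were on the positive side, with means of 0.29 ± 0.089 and 0.26 ± 0.043 (SD, n = 2). Clone 5941 lay on the negative side, at -0.21 on array 1 and -0.24 on array 2, with a mean of -0.22 ± 0.024 (SD, n = 2). Each clone lay on the same side on both arrays, which the authors' selection on these arrays favours, and the clones disagreed with one another. Clone 175 exceeded clone 5941 by 0.43 and 0.59 on the arrays, and clone 4343 exceeded it by 0.43 and 0.53, while clones 175 and 4343 differed by a mean of 0.028 ± 0.046 (SD, n = 2). The exact sign-flip p was 0.5 for both differences from clone 5941, with an adjusted p of 0.833. As for the Id clones, this outcome was fixed by the opposite sides of the clones. The limma intervals of all 3 clones held 0, and their adjusted p-values were 0.349 for clones 175 and 4343 and 0.354 for clone 5941. The authors' deposited tables hold Gata6 in both directions, with fold changes of 1.2 and 1.18 in the up-regulated and 0.85 in the down-regulated table. Averaged over its clones, Gata6 had a log2 ratio of 0.081 on array 1 and 0.13 on array 2, and the SD over the clone means was 0.286. The files give no position of a clone within its gene, so whether the clones report different parts or forms of the transcript was not tested.

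Clones on both sides were common among named genes. Of 218 genes with at least 2 named clones measured on both arrays, 110 (50.5%) had clones on both sides of 0, and of 31 genes with exactly 3 such clones, Gata6 among them, 20 (64.5%) did. The range of clone means was 0.51 for Gata6 and had a median of 0.51 over the 218 genes and of 0.73 over the 110 split genes. The tables leave out clones near 0, so a split gene has a wide range by selection. The share of split genes also rests on this selection. The disagreement of the Gata6 clones is thus a common one among the named clones, and its frequency over all clones is unknown here. The named clones that Tgfbr1, Eng, Id2 and Id3 have are single ones with no second clone beside them.

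**Figure D3:**
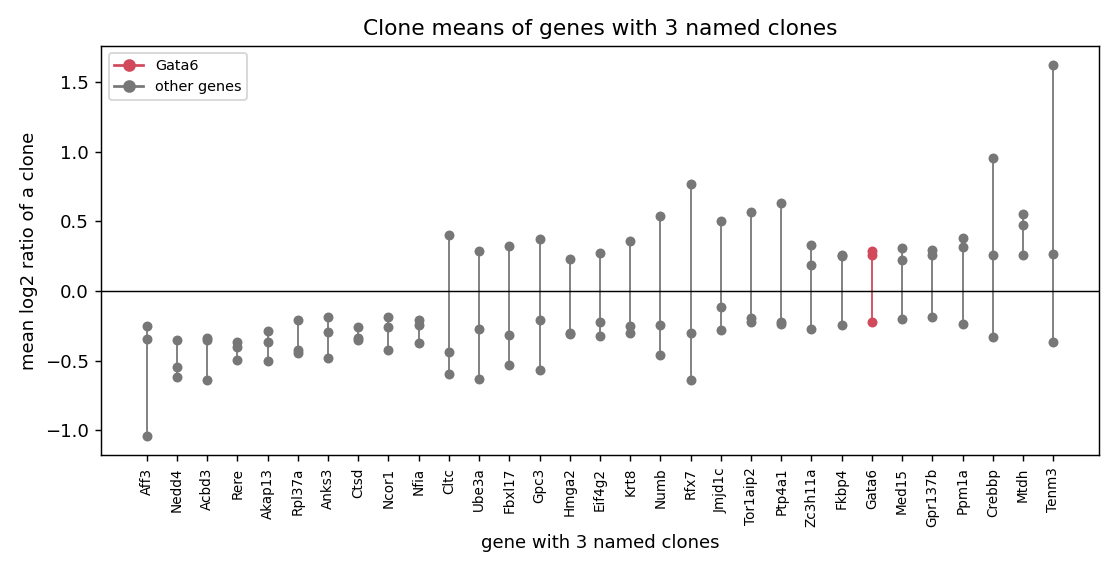
Mean log2 ratio of each clone (vertical axis) for the 31 genes with 3 named clones (horizontal axis, ordered by gene mean), with a line joining the clones of a gene and Gata6 in red. In 20 of the 31 genes the line crosses 0, and for Gata6 it spans 0.51.

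Ratios on these arrays also moved with the place of a clone in the clone numbering. Clones were grouped into 59 blocks of consecutive numbers, each the size of a plate of 16 rows and 24 columns. The median log2 ratio ran from -0.20 to 0.34 on array 1 and from -0.33 to 0.26 on array 2. The Tgfbr1 clone in block 43 and the Id2 clone in block 25 stood out from their blocks, with only 12 and 7 clones of their block having a mean further out on the same side. With block medians subtracted, their means were -0.45 and 0.38. By their means, the other members stood nearer to their blocks, although on array 1 alone Id3 had 13 clones of its block further out, beside 15 for Id2 and 18 for Tgfbr1. Eng lies in block 46, whose median on array 2 was -0.27 and where 27.1% of clones had a positive mean, and 58 clones of the block lay further out. Id3 lies in block 39, with medians of -0.11 and -0.14 and 26.6% of clones positive, and 26 clones lay further out. With block medians subtracted, the mean moved from -0.38 to -0.24 for Eng and from -0.36 to -0.23 for Id3, over 1.5 times in each case.

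For Gata6, clone 175 lies in block 1, where 73.9% of clones were positive and the medians were 0.094 and 0.16. Of its block, 106 of 383 clones lay further out, and its mean moved from 0.29 to 0.16 when the block median was subtracted. Clone 4343 in block 12 moved from 0.26 to 0.23, and clone 5941 in block 16 from -0.224 to -0.218. The Gata6 clones thus kept their sides with the block medians subtracted. The part that the blocks play in the ratios of Eng, Id3 and Gata6 clone 175 was not tested further.

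**Figure D4:**
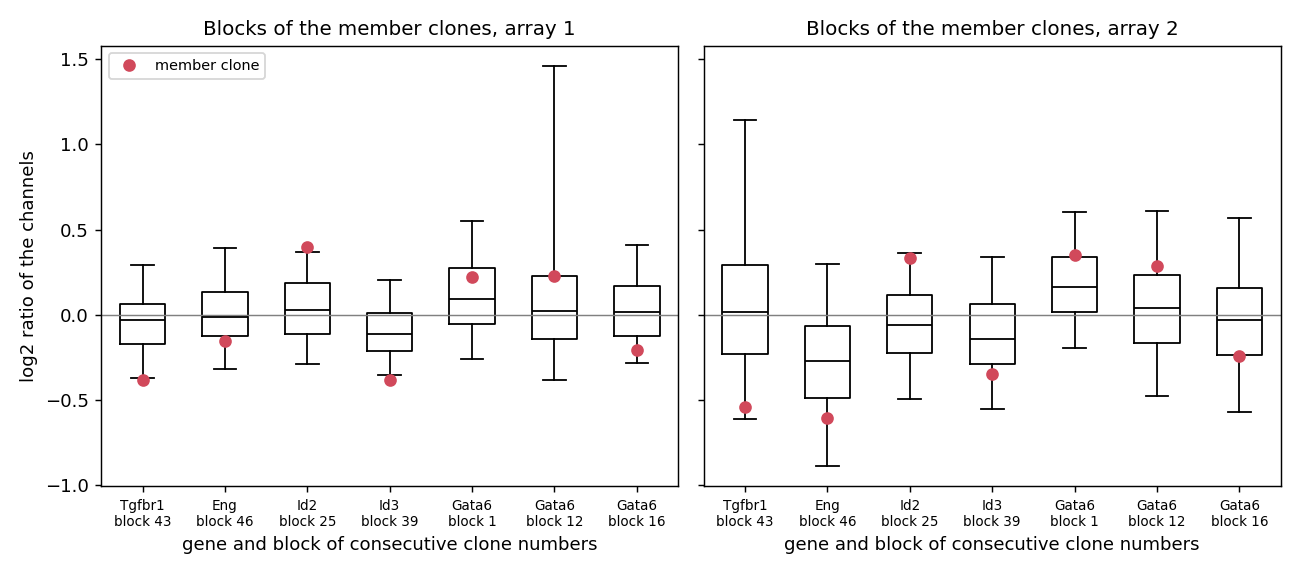
Log2 ratio of each member clone (red) on array 1 (left) and array 2 (right) beside all clones of its block of consecutive clone numbers, as boxes with the median, the quartiles and whiskers at the 5th and 95th percentiles. On array 1, Id2 lies above the upper whisker, Id3 below the lower one and Tgfbr1 just below it. Gata6 in block 1 lies within the box on array 1, and Eng lies within the whiskers on both arrays.

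The wider pathway was described from gene lists grouped by role, and only genes named in the authors' tables could be placed. Of 202 genes in all lists, 36 were named and measured on both arrays, 19 positive and 17 negative by their mean. Their median log2 ratio was 0.13. It lay between the gene means of Gata6 (0.11) and Ppm1a (0.15), each an average of clones on both sides. Over all 2258 named genes measured on both arrays, 1095 were positive and 1163 negative, with a median of -0.094. Counted by clone, the lists had 23 positive and 24 negative, beside 1204 and 1314 for all named genes. No clone of any list gene passed the limma test after adjustment. The values that follow are therefore positions on a side and not calls.

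Among the ligands, Bmp2, which activates the BMP receptors, lay at -0.33 ± 0.062, and Bmp1, which despite its name is a metalloproteinase that processes matrix proteins and BMP antagonists, at 0.62 ± 0.23 (mean log2 ratio and SD, n = 2). Besides Tgfbr1 and Eng, 3 genes of the receptor list were named. Tgfbr3, the co-receptor betaglycan and a structural relative of endoglin, lay on the other side from Eng, at 0.40 on array 1 and 0.33 on array 2. Acvr2b, a type II activin receptor, lay at 0.84 and 0.28, and Rgmb, a co-receptor for BMP ligands, at -0.30 and -0.39. The 5 receptor genes, members included, thus split into 2 positive and 3 negative. All 3 named extracellular modulators had positive means, Fbn2, a fibrillin of the matrix, with 0.42 ± 0.095, Crim1, a membrane protein that binds BMP ligands, with 0.36 ± 0.19 and the thrombospondin Thbs2 with 0.39 ± 0.56 (SD, n = 2), of which Thbs2 was at 0.79 on array 1 and -0.00072 on array 2.

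Inside the cell, 4 genes of the Smad list were positive and 1 negative. Smad1, the signal carrier of the BMP branch, lay at 0.36 ± 0.039 and Skil, a repressor of Smad complexes, at 0.43 ± 0.062 (SD, n = 2). Strap, which holds back TGF-beta receptor signalling, lay at 0.33 ± 0.18 for the clone measured on both arrays, while a further Strap clone had a value of -0.71 on array 1 alone. Fkbp1a, which binds and holds back the type I receptor, was negative for both of its clones, with means of -0.29 and -0.39. Ppm1a, a phosphatase that acts on Smads, had clones on both sides, like Gata6, at 0.31, 0.38 and -0.24. Of the target genes besides Id2 and Id3, 3 were negative and 1 positive. Tsc22d1, a TGF-beta-induced transcriptional regulator, lay at -0.60 ± 0.18, fibronectin Fn1 at -0.40 ± 0.011, collagen Col1a2 at -0.19 ± 0.027 and the cell cycle inhibitor Cdkn2b at 0.26 ± 0.099 (SD, n = 2).

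The E proteins, the basic helix-loop-helix partners that Id2 and Id3 bind, were all named. Tcf4 lay furthest out of all the pathway genes, at 1.09 on array 1 and 1.82 on array 2. Its mean was 1.46 ± 0.52 (SD, n = 2), a 2.75-fold difference (limma adjusted p = 0.349). Tcf12 had 0.39 ± 0.040 and Tcf3, which the file names Tcfe2a, had -0.31 ± 0.11 (SD, n = 2). The partners of the Id proteins thus lay on both sides, as Id2 and Id3 did.

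The list of Gata factors and lung morphogenesis genes had 12 named genes, 5 positive and 7 negative, with Gata6 counted as positive by its mean. Zfpm2, the Gata cofactor known as Fog2, was negative for both clones, with means of -0.33 and -0.48, and Gata2, a Gata factor of blood and vessels, lay at -0.26 ± 0.023 (SD, n = 2). The retinoic acid receptor Rarb had the largest absolute mean of the list, with -0.52 on array 1 and -0.997 on array 2. Foxp1, a transcription factor of the airway epithelium, lay at 0.49 ± 0.28 and Fgfr2, the receptor for the branching signal Fgf10, at -0.28 ± 0.049 (SD, n = 2). Both clones of Ptch1, the hedgehog receptor, were positive, with means of 0.35 and 0.30. Hmga2, a chromatin protein of growing tissue, also had clones on both sides, but with the balance the other way round from Gata6, 1 clone at 0.23 and the others at -0.31 and -0.30. The 3 clones of Nfia, by contrast, were all negative on both arrays, with means of -0.37, -0.21 and -0.25.

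**Figure D5:**
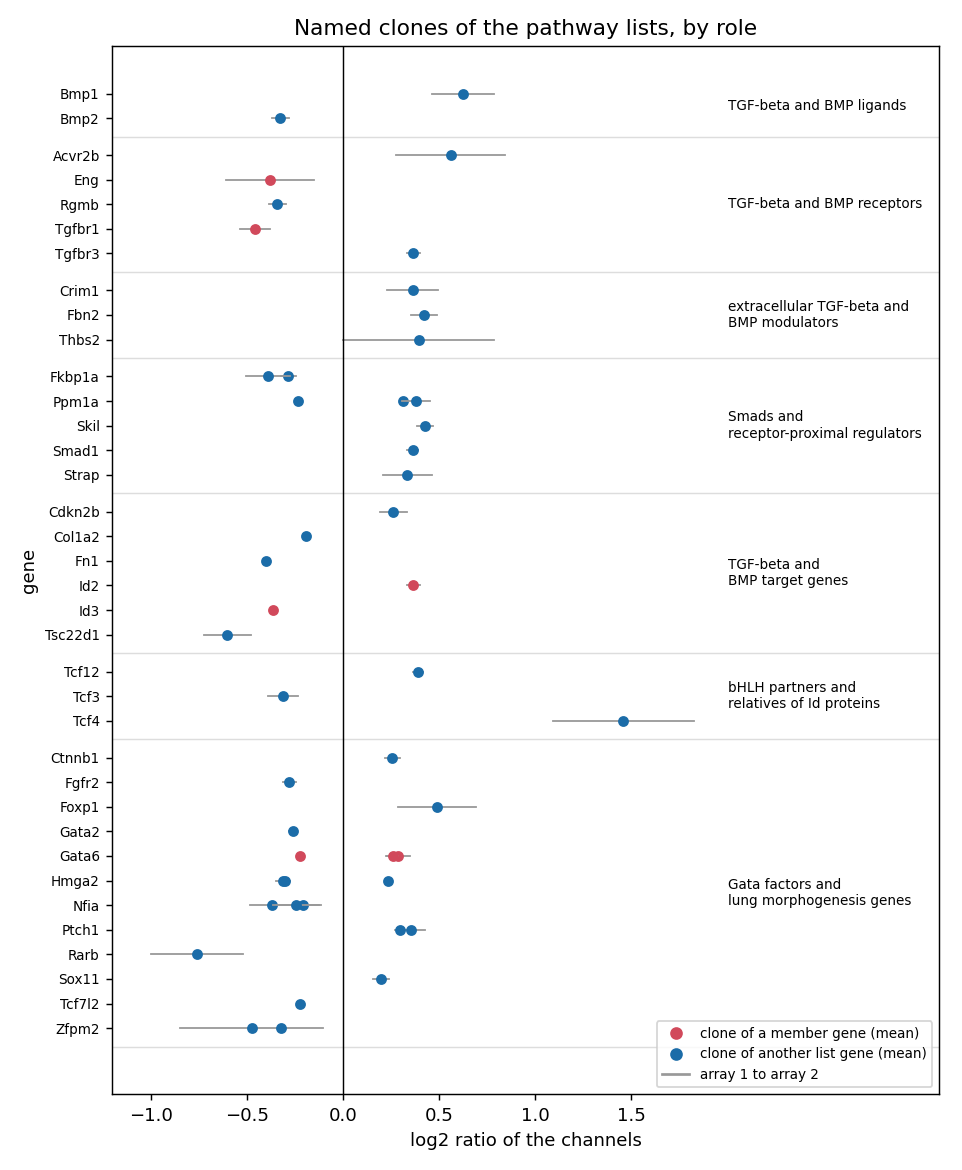
Mean log2 ratio (horizontal axis) of every clone of the pathway lists measured on both arrays, grouped by role, with a grey line from the value on array 1 to that on array 2; member genes are red. Every list but the extracellular modulators holds clones on both sides of 0, and Tcf4 lies furthest out at 1.46.

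Gene ontology terms in the authors' tables were used to see what else the members share, a step added after their values were known. Tgfbr1, Eng, Id2 and Id3 all carry the term for heart development, as do 23 named genes measured on both arrays in all, of which 10 were positive and 13 negative (median log2 ratio -0.22). A further term was shared by the same 4 members. It was carried by 49 named genes, of which 28 were positive and 21 negative (median log2 ratio 0.255). Over all named genes measured on both arrays, 1095 were positive and 1163 negative. Whether either term departs from that balance was not tested. The authors' tables leave out clones with small ratios, so a slight majority on either side moves the median well to that side. The term for TGF-beta receptor signalling was carried by 5 named genes. Of these Smad1 and Dcp1a were positive, at 0.36 and 0.34, and Tgfbr1, Bmp2 and Fut8, a fucosyltransferase that modifies receptors, were negative, at -0.46, -0.33 and -0.42.

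Markers of cell types were mostly not named. Of 16 heart markers 4 were named, 2 on each side, with Tnnt2 at 0.86 ± 0.56 and Mb at 0.54 ± 0.52 against Pln at -0.66 ± 0.31 and Myh6 at -0.37 ± 0.26 (SD, n = 2). Of 20 lung epithelial markers 2 were named, Krt18 at 0.36 ± 0.071 and Krt8 with clone means of 0.36, -0.30 and -0.25, and of 18 mesenchymal markers 3, 1 positive and 2 negative, with Myh11, the smooth muscle myosin, at 0.63 ± 0.12, Fn1 at -0.40 ± 0.011 and Col1a2 at -0.19 ± 0.027 (SD, n = 2). None of the 17 blood markers was named. A ratio gives no level, so the labelled tissue could not be checked against its markers, and the part that cell composition plays in the members' ratios was not tested.

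The named genes nearest to each member clone were found by the Euclidean distance over the log2 ratios of the 2 arrays, among 2518 named clones. The nearest to the Id2 clone were Tgfbr3, at a distance of 0.0020, and C330018D20Rik, at 0.0076. The nearest to the Id3 clone were Atp23 and Klhl24, at 0.0081 and 0.0088, and the nearest to the Tgfbr1 clone were Fam126b and F8a, at 0.0158 and 0.0185. Eng had Snx30 and Cdcp1 at 0.015 each. Gata6 clone 175 lay nearest to Dnaja2 and Lrrc58 (0.0055 and 0.0060), clone 4343 to Gpr137b and Psmc2 (0.0066 and 0.0096), and clone 5941 to Tbccd1 and Sem1 (0.0028 and 0.0089). With only 2 arrays many clones share nearly the same pair of ratios, so these distances describe likeness in value alone.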

How the data were processed

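RNA of 2 pairs of wild-type and Bclaf1 knockout lung samples was compared on 2 two-colour arrays. Per the labels, TRI reagent RNA was turned into cDNA with Superscript II, dyed with Cy5 or Cy3, hybridised and scanned on an Agilent scanner. The deposited value table holds 1 log2 ratio per clone and array; background correction, normalization and numerator are unstated in these sources, and the medians of 0.0068 and 0.0041 lie near 0. Per the file headers, the authors' tables hold for each clone a p-value, of an unstated test, and a fold change on a linear scale.

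Members were matched by the file's symbol. List genes were named through gene ID or symbol in a RefSeq gene table (GRCm38.p6, for names), which gave 2527 of 3509 listed clones a name, with 70 left out where symbol and ID named different genes. The 3 control features were left out, and array 1 lacked a value for 9 clones and array 2 for 115. Mean ratios of 22532 clones were set against 0 in limma 3.58.1 (R 4.3.3, eBayes, two-sided, Benjamini-Hochberg, threshold 0.05), leaving 1 residual degree of freedom per clone before moderation. The fit was tested on simulated data with shifts larger than the ratio of any member. It was therefore not tested whether the fit could call a ratio of the members' size. The rule for named genes took the members, Bclaf1, up to 5 further genes per list by absolute mean and the 2 nearest genes per clone. Genes singled out beyond it (Gata2, Hmga2, Nfia, sex-linked genes, markers and ontology genes) were chosen with their values known. The members and lists were chosen with earlier results of these data known. Alternatives were other centring, scaling, quantile normalization, block medians, robust eBayes, an ordinary one-sample test, single arrays and other thresholds.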

Additional observations from a re-analysis of the deposited data

How the results depend on the processing

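Under the alternatives that change a ratio from both arrays (centring, equal median absolute deviations, quantile normalization and block medians subtracted), all 28 log2 ratios of the 7 member clones kept their side. For scaling and centring this outcome was fixed beforehand. Scaling cannot turn a clone with the same sign on both arrays, and centring shifted the arrays by only 0.0068 and 0.0041. Robust eBayes, the ordinary one-sample test and testing clones on at least 1 array leave the members' ratios as they are and change only the p. No member clone was called in any of these fits, with adjusted p-values of 0.319 to 0.662. Which clones had an unadjusted p under 0.05 did change. Id3 had 0.0666 with block medians subtracted, and in the ordinary one-sample test Tgfbr1 had 0.109, Id2 0.0601 and Gata6 clone 5941 0.048. Gata6 clone 175 had 0.0462 with equal median absolute deviations and 0.0466 after quantile normalization. Single arrays gave -0.38 and -0.54 for Tgfbr1, -0.15 and -0.61 for Eng, 0.40 and 0.33 for Id2, -0.38 and -0.35 for Id3, and 0.22 and 0.35, 0.23 and 0.29, and -0.21 and -0.24 for Gata6 clones 175, 4343 and 5941; no test is possible with 1 array. Over all clones, 3138 had an unadjusted limma p under 0.05, and 1861 in the ordinary one-sample test. Past 1.5-fold on both arrays were 114 positive and 70 negative clones; the negative count was 113 with equal median absolute deviations and 146 after quantile normalization. At 2-fold the counts were 36 and 2, and at the lower threshold 837 and 644. Counting every clone in place of gene means gave 3 against 1 on the negative side of the Smad list, and 8 positive and 12 negative against 5 and 7 in the Gata and lung morphogenesis list. Each log2 ratio is a difference within 1 co-hybridised pair of samples, so the test of the mean ratio against 0 is itself a paired one, and no further replicate block could be added. Spot intensities were not used here, so signal over background was not examined.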
